A study of Mus musculus with 4 samples.

Results

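The 7 keratin genes described here are those of the basal layer of stratified epithelia, Krt5, Krt14 and Krt15, and those switched on in stressed or wounded epithelia, Krt6a, Krt6b, Krt16 and Krt17. They were chosen by name, as all probes of the arrays whose gene name was 1 of these 7, which gave 9 probes of the 39429 probes and 7 of the 29924 gene names on the arrays. Ureters were taken from newborn (P0) NMRI mice and kept as explants for 8 days, either in DMSO alone or in 2 µM purmorphamine, an agonist of SHH signaling that acts on Smoothened. Control ureters carried Pparg (fl/?) without cre, and Pparg-cKO ureters were Pax2-cre/+; Pparg (fl/fl). Pax2-cre recombines in the nephric duct, the ureteric epithelium and the collecting ducts, and the recombined allele still gives a shortened Pparg mRNA. The Pparg probe therefore does not check the genotype. Total RNA of whole ureters, epithelium and mesenchyme together, came from sex-sorted pools, with 1 male and 1 female pool in each of the 4 groups, and the number of ureters per pool is not given in the sources used here. Each of the 4 two-color arrays paired a DMSO pool with the purmorphamine pool of the same genotype and sex, and all arrays were on a single slide. The dyes were exchanged between the male and the female arrays, so that within a treatment sex, dye and replicate number are the same split and cannot be told apart.

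Keratins are the intermediate filament proteins of epithelia, and a filament needs a type I partner and a type II partner. KRT5 is the type II keratin of basal cells and pairs with the type I keratins KRT14 and KRT15. KRT6A and KRT6B are type II keratins that pair with KRT16 and KRT17 and appear in wounded, hyperproliferative and squamous epithelia. In the urothelium of the ureter KRT5 marks the B cells, while the luminal S cells carry uroplakins and KRT20.

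The members lie in the 2 keratin gene clusters of the mouse, and all 9 probes read the minus strand. In the mm9 build of the files, the type II probes span 101506492 to 101542115 of chromosome 15, with Krt6b, Krt6a and Krt5 in this order. The type I probes span 99993331 to 100117594 of chromosome 11, in the order Krt15, Krt14, Krt16 and Krt17. Krt5 was read by a probe that starts at base 677 of its transcript (chr15:101542056-101542115) and by a probe that starts at base 2119 (chr15:101537514-101537573). Krt6b had a probe at base 645 (chr15:101509450-101509509) and a probe at base 2139 (chr15:101506492-101506551). The probe at base 645 is listed in the files for the RefSeq transcripts of both Krt6b and Krt6a, so it reads the paralogs together, while the probe at base 2139 is listed for Krt6b only. The single probes of Krt6a (chr15:101520862-101520921), Krt14 (chr11:100064683-100065288, a span that includes an intron), Krt15 (chr11:99993331-99993390), Krt16 (chr11:100107408-100107467) and Krt17 (chr11:100117535-100117594) are each listed for their own RefSeq transcript. The 2 coding probes of the type II keratins are printed because they come from the same stretch of the paralogs: over an overlap of 47 bases, 38 bases (80.9%) are identical and stand in capitals. The probes of Krt14 and Krt15 are printed as the type I partners of Krt5, with the stop codon of Krt15 in capitals.
Krt5 probe at base 677: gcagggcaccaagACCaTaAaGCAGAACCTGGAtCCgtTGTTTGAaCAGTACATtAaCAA
Krt6b probe at base 645: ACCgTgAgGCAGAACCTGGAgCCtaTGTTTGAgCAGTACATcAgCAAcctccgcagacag
Krt14 probe at base 1393: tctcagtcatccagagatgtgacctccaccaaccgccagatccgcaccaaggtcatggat
Krt15 probe at base 1402: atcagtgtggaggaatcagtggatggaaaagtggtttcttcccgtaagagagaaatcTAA

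Each probe had 4 spots per array, and in the 144 member spots of the 4 arrays 5 were marked as outliers and left out. All 9 probes were well above background in all 8 pools, so all 7 members passed the filter on dim probes, which kept 20241 genes. Levels are normalized log2 intensities, on which a difference of 1 is a doubling, and they are compared between pools of the same probe only. The SD of the log2 ratio over the 4 spots of a member probe was 0.0049 to 0.126 per array. With 2 pools per group the number of arrays limits the precision of every value, and the p-values measure the spread between these pools only. Pan-epithelial markers (9 of 9 above background in all pools) had a summed scaled intensity of 100700 to 111100 over the 8 pools. In these bulk samples fewer cells of a type and less RNA per cell cannot be told apart. Upk2, Trp63 and Acta2 were well above background in all 8 pools. In the ureter Upk2 marks S cells and more weakly intermediate cells, Trp63 marks basal and intermediate cells, and Acta2 marks smooth muscle.

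The 3 basal keratins varied less between the pools of a group than the 4 stress keratins did in Pparg-cKO DMSO ureters. For the stress keratins the largest gap between the 2 pools of a group was that of the Pparg-cKO DMSO group, where the female pool exceeded the male pool by 5.16 for Krt16, 3.52 for Krt6b, 3.27 for Krt6a and 1.75 for Krt17 on the log2 scale. For Krt14, Krt15 and Krt5 this gap was 1.12, 0.53 and 0.50. In the control groups the female pool differed from the male pool by -0.98 to 0.10 over all 7 members. The female Pparg-cKO DMSO pool thus stood apart for the stress keratins. The summed intensity of 7 cornified skin markers stood apart in the same pool, at 37700 against 1330 to 2234 in the other 7 pools. The mean log2 level of these markers was 11.52 in that pool, 8.65 in the treated female Pparg-cKO pool and 7.56 to 7.88 in the rest. The cornified signal was thus weaker but also raised in the treated female pool. The part of these markers in the keratin levels was not tested. Because of the gaps between pools, the values of the male and the female pools are given apart where they lie far from each other.

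**Figure D1:**
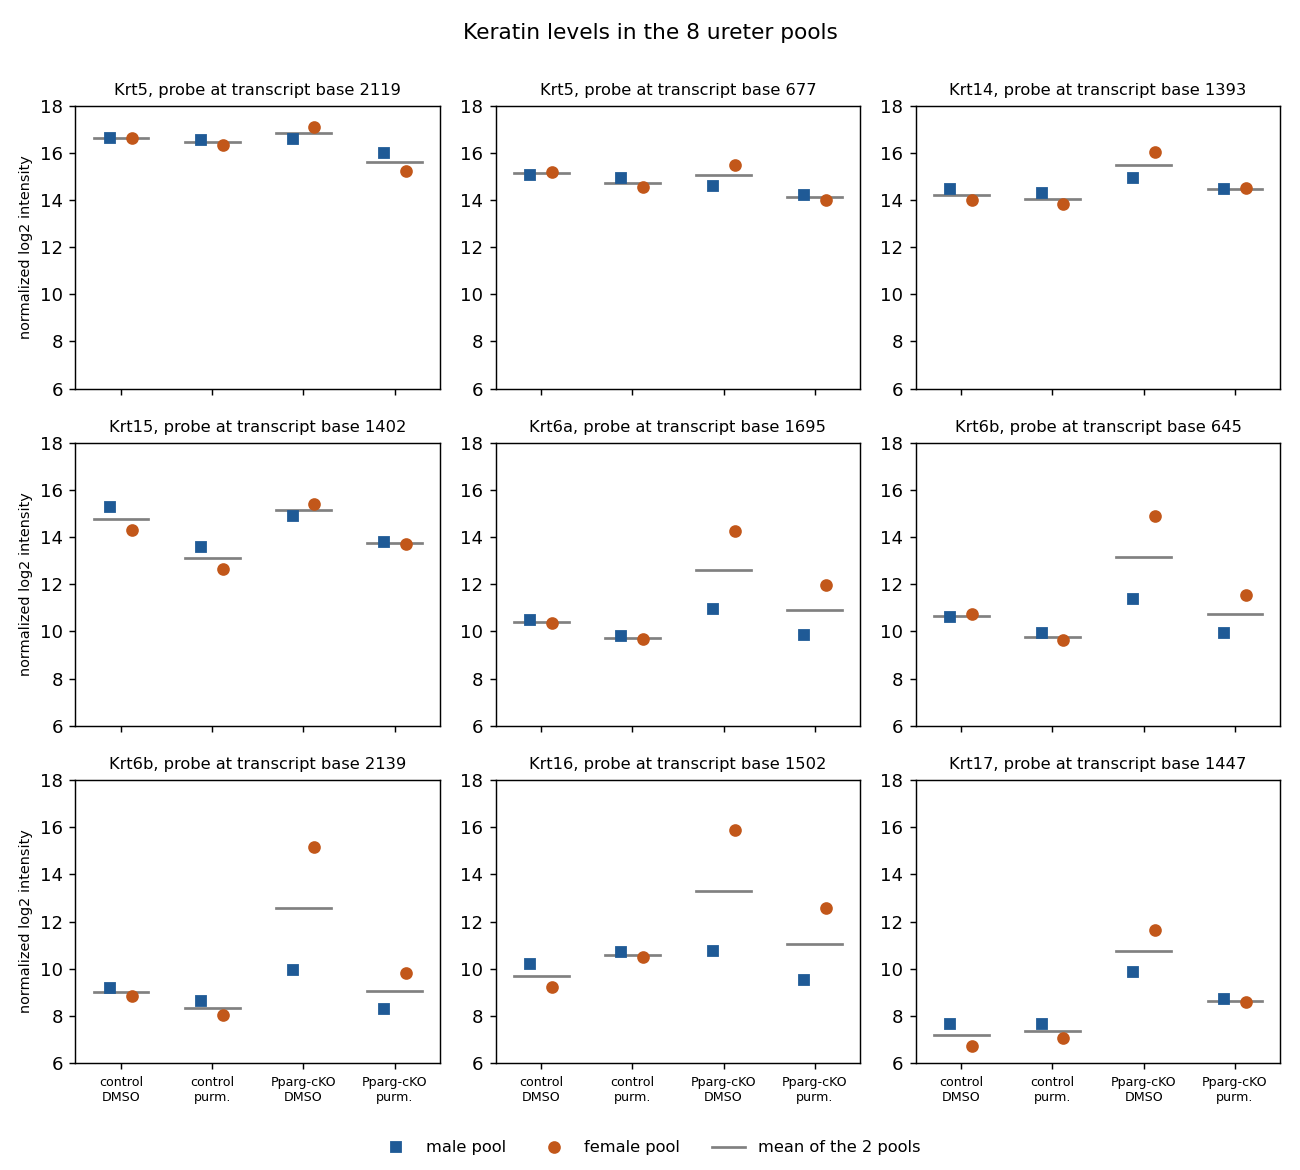
Normalized log2 intensity of the 9 keratin probes (y axis) in the 4 groups (x axis), with a square for the male pool, a circle for the female pool and a gray line for the mean of the 2 pools. The stress keratins Krt6a, Krt6b and Krt16 are highest in the female Pparg-cKO DMSO pool, while Krt17 is higher in both Pparg-cKO DMSO pools (9.88 and 11.63) than in both control DMSO pools (7.65 and 6.71).

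**Figure D2:**
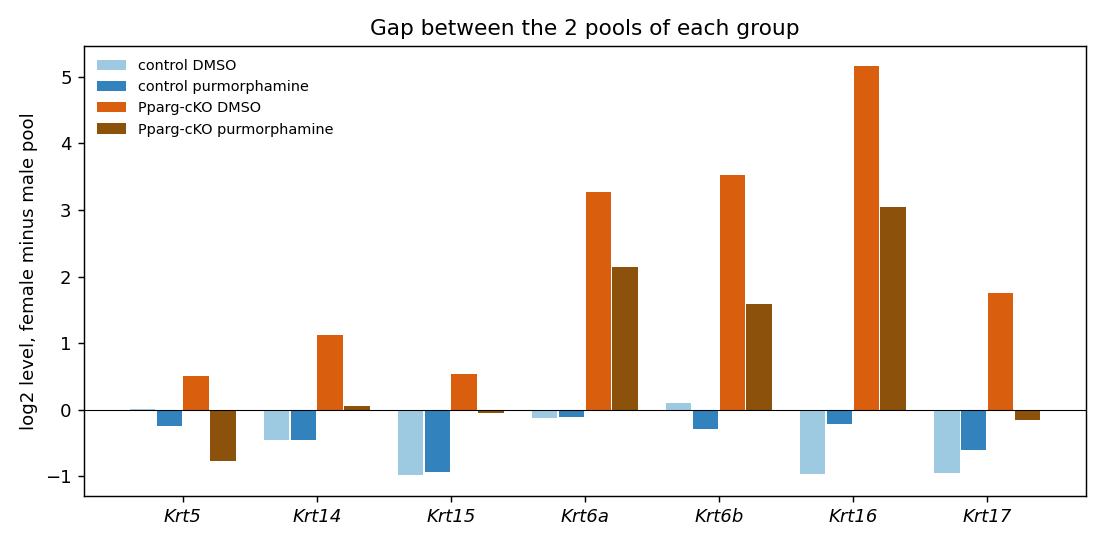
Log2 level of the female pool minus that of the male pool (y axis) for each keratin (x axis) and group (bar colors). The bars of the Pparg-cKO DMSO group reach 5.16 for Krt16 and 3.52 for Krt6b, while those of both control groups lie between -0.98 and 0.10.

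Krt5, the type II keratin of B cells, spanned less than 2 log2 units over all 8 pools. At the probe at base 2119, the male and female pools read 16.63 and 16.65 in control DMSO and 16.59 and 17.09 in Pparg-cKO DMSO. With purmorphamine they read 16.56 and 16.32 in control ureters and 16.00 and 15.23 in Pparg-cKO ureters. The treated Pparg-cKO pools were therefore the lowest of the 8, and the DMSO groups of the genotypes overlapped. The probe at base 677 also put the treated Pparg-cKO pools lowest and the DMSO groups overlapped, with 15.05 and 15.20 in control DMSO, 14.62 and 15.50 in Pparg-cKO DMSO, 14.94 and 14.55 in treated control and 14.23 and 14.00 in treated Pparg-cKO pools.

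Krt14, a type I keratin that in the urothelium marks a regenerative subset of basal cells, read 14.45 and 13.99 in control DMSO and 14.93 and 16.05 in Pparg-cKO DMSO. Treated pools read 14.29 and 13.82 in control ureters and 14.45 and 14.50 in Pparg-cKO ureters. Both untreated Pparg-cKO pools lay above the other 6 pools. The group means (SD, n = 2) were 15.49 ± 0.79 for Pparg-cKO DMSO, 14.47 ± 0.04 for treated Pparg-cKO, 14.22 ± 0.33 for control DMSO and 14.06 ± 0.33 for treated control, and the last 3 neighbors in this order were closer than the spread of the control pools.

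Krt15, the other type I keratin of basal cells, read 15.29 and 14.30 in control DMSO and 14.89 and 15.42 in Pparg-cKO DMSO. It was lower in all 4 treated pools, with 13.59 and 12.65 in control and 13.78 and 13.73 in Pparg-cKO ureters. The levels separated by treatment. The genotypes overlapped in DMSO, while both treated Pparg-cKO pools lay just above the treated control pools.

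Krt6a, a stress-inducible type II keratin, read 10.48 and 10.36 in control DMSO, 9.80 and 9.69 in treated control, 10.97 and 14.25 in Pparg-cKO DMSO and 9.84 and 11.99 in treated Pparg-cKO pools. Krt6b, its close paralog, followed it at the probe shared with Krt6a, with 10.63 and 10.72, 9.92 and 9.63, 11.38 and 14.90, and 9.95 and 11.55 in the same order of groups. The probe listed for Krt6b only read 9.20 and 8.83 in control DMSO, 8.64 and 8.04 in treated control, 9.95 and 15.16 in Pparg-cKO DMSO and 8.27 and 9.81 in treated Pparg-cKO pools. All 3 probes put the female Pparg-cKO DMSO pool highest of the 8, and the male pool of that group was above all 4 control pools.

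Krt16, the type I partner of KRT6, read 10.19 and 9.22 in control DMSO, 10.69 and 10.48 in treated control, 10.73 and 15.89 in Pparg-cKO DMSO and 9.51 and 12.56 in treated Pparg-cKO pools. In the male pools Krt16 spanned 9.51 to 10.73 over all 4 groups, so that the wide range of this gene came from the female Pparg-cKO pools. Krt17, a type I keratin of basal and injured epithelia, read 7.65 and 6.71 in control DMSO and 7.65 and 7.05 in treated control pools. In Pparg-cKO ureters it read 9.88 and 11.63 with DMSO and 8.72 and 8.57 with purmorphamine. All 4 Pparg-cKO pools lay above all 4 control pools for Krt17. Where pools are said to lie apart without a share of all genes beside them, that share was not counted.

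Loss of Pparg was compared first in DMSO. Of the 7 members 1, Krt17, was called higher in Pparg-cKO ureters at an adjusted p under 0.05 in limma, where 2.35% of all genes tested were called higher. Krt17 rose by 3.57 ± 0.60 (SE) on the log2 scale, or 11.9-fold, with an adjusted p of 0.0332 (limma), by 2.23 for male and 4.92 for female pools. This call was lost under 5 of 15 alternatives, among them processed signals in place of mean signals (adjusted p = 0.0807) and a fit with the replicate number as a block. These also include the fits without the control replicate 1 array (adjusted p = 0.119), the control replicate 2 array (adjusted p = 0.161) or the Pparg-cKO replicate 2 array (adjusted p = 0.128), and the difference was 2.71 to 4.46 over the 4 fits that leave out an array. The median difference of the 7 members was 2.19, against 0.0042 for all genes tested, and was 0.49 for male and 3.89 for female pools.

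The other stress keratins had larger estimates than the basal keratins and a wider spread. Krt16 differed by 3.61 ± 1.70 (SE, adjusted p = 0.346), with 0.55 for male and 6.67 for female pools. Krt6b differed by 2.46 ± 1.09 (adjusted p = 0.316), with 0.75 and 4.18, and by 3.54 ± 1.56 at its own probe, with 0.76 and 6.33. Krt6a differed by 2.19 ± 1.10 (adjusted p = 0.375), with 0.49 and 3.89. For each of these 3 genes the 95% interval included 0, and reached from -0.56 to 7.78 for Krt16. Without the Pparg-cKO replicate 1 array, which leaves the female pool alone to stand for Pparg-cKO ureters, limma called Krt6a, Krt6b, Krt16 and Krt17, and without the Pparg-cKO replicate 2 array it called 0 members.

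Among the basal keratins, Krt14 differed by 1.27 ± 0.37 (SE, adjusted p = 0.146), with 0.48 for male and 2.06 for female pools. Krt15 differed by 0.36 ± 0.41, with -0.40 and 1.12, and Krt5 by 0.19 ± 0.29, with -0.05 and 0.44. The 95% interval of Krt5, -0.51 to 0.90, allows both a decrease and a near doubling. At an unadjusted p under 0.05, 2 members were higher, Krt14 and Krt17, beside 9.17% of all genes tested. The pools of the genotypes did not overlap for 5 members, Krt14, Krt6a, Krt6b, Krt16 and Krt17, all higher without Pparg, beside 21.0% of all genes tested.

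The methods of the study used a rule of fold changes without a test, on processed signals scaled to a 75th percentile of 1500 with a floor of 15. A gene passes if a probe exceeds an intensity of 100 in the brighter pool of each of the 2 sex-matched pairs and differs at least 1.5-fold the same way in both. By this rule 3 members, Krt6b, Krt16 and Krt17, were higher in Pparg-cKO than in control ureters with DMSO, beside 1.33% of all genes. Krt17 stood at scaled intensities of 44.4 and 15 in control DMSO and 326 and 1137 in Pparg-cKO DMSO, and since the female control value is the floor, its fold in that pair is a lower bound. In the male pools alone the same 3 members passed, and in the female pools alone 6 passed, all but Krt5.

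**Figure D3:**
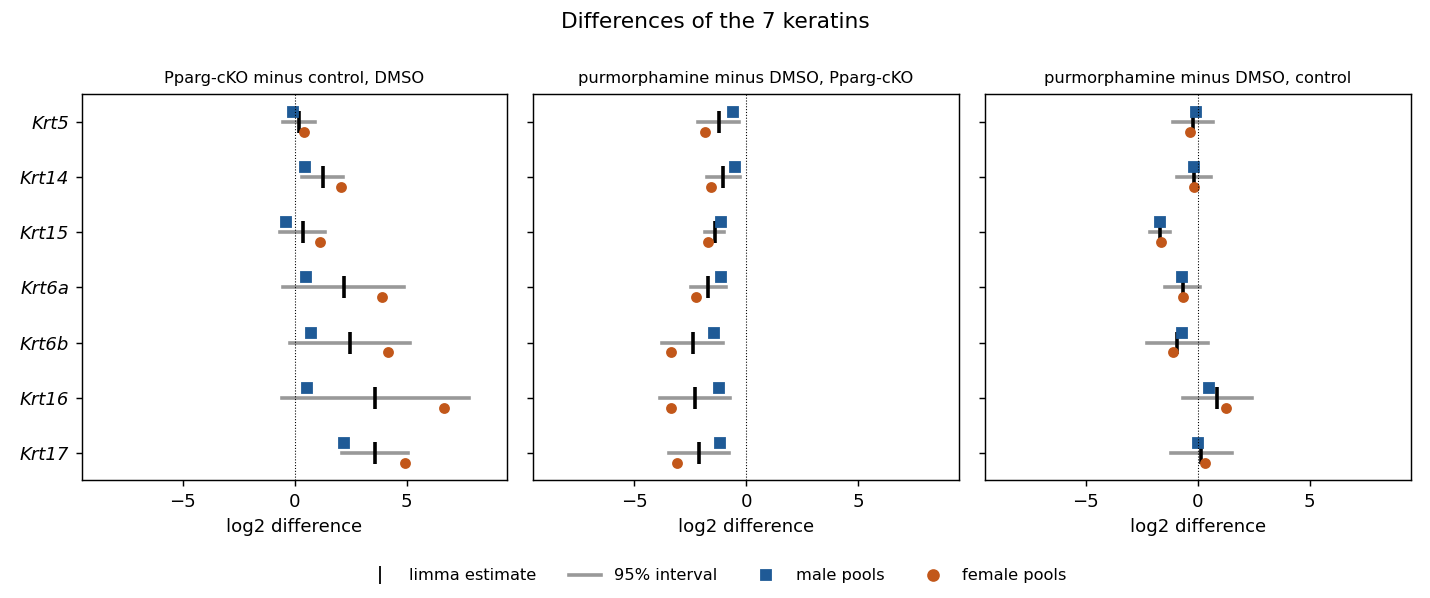
Log2 differences (x axis) of the 7 keratins (y axis) for Pparg-cKO minus control ureters with DMSO and for purmorphamine minus DMSO in each genotype, with the limma estimate as a black tick, its 95% interval as a gray bar, the male pools as squares and the female pools as circles. In Pparg-cKO ureters all 14 pair values for purmorphamine lie below 0, from -0.48 to -3.36, and the female value is the lower for each gene.

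Purmorphamine was compared with DMSO within each array. In Pparg-cKO ureters all 7 members were lower with purmorphamine in both the male and the female pools, with a median of -1.69, against -0.0024 for all genes tested. Limma called 1 member lower, Krt15, where 2.44% of all genes were called lower. Krt15 fell by 1.40 ± 0.16 (SE) on the log2 scale, or 2.64-fold, with an adjusted p of 0.0366 (limma), with -1.11 for male and -1.69 for female pools. Leaving out control replicate 1, control replicate 2, Pparg-cKO replicate 1 or Pparg-cKO replicate 2 each ended this call, with adjusted p from 0.0501 to 0.197 and differences from -1.69 to -1.11. In all, 6 of 14 alternatives kept it. It was also lost with processed signals (adjusted p = 0.117), the value table (0.125), no filter on dim probes (0.0542) and the replicate number as a block. The female DMSO pool in this comparison is the pool that stood apart for the stress keratins. Both Pparg-cKO DMSO pools are shared with the comparison of the genotypes in DMSO. A high Pparg-cKO DMSO pool thus raises the difference between genotypes and lowers that for purmorphamine.

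The stress keratins had estimates below that of Krt15 but a wider spread. Krt6b differed by -2.39 ± 0.49 (SE, adjusted p = 0.0792), with -1.43 for male and -3.36 for female pools, and by -3.51 ± 0.92 at its own probe, with -1.68 and -5.35. Krt16 differed by -2.28 ± 0.56 (adjusted p = 0.104), with -1.23 and -3.33. Krt17 differed by -2.11 ± 0.49 (adjusted p = 0.0946), with -1.16 and -3.06. Krt6a differed by -1.69 ± 0.29 (adjusted p = 0.0610), with -1.13 and -2.25. The male pools thus differed by -1.43 to -1.13 for these 4 genes.

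Krt5 and Krt14 showed smaller differences, with -1.22 ± 0.33 (SE, adjusted p = 0.119) and -1.01 ± 0.27 (adjusted p = 0.118). Their male pools differed by -0.59 and -0.48 and their female pools by -1.86 and -1.55. At an unadjusted p under 0.05, 7 of the 7 members were lower, beside 14.1% of all genes tested. By the fold rule 6 members, all but Krt14, were lower, beside 2.47% of all genes. Krt5 did not pass at the probe at base 677, where the male pair differed by -0.39 in log2 scaled intensity. At that probe Krt5 differed by -0.94 ± 0.31 (SE), with -0.38 for male and -1.50 for female pools. The treated and untreated Pparg-cKO pools did not overlap for 4 members, Krt5, Krt14, Krt15 and Krt17, beside 28.2% of all genes tested, while for Krt6a, Krt6b and Krt16 the treated female pool still exceeded the untreated male pool.

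In control ureters the member with the largest difference was Krt15. Krt15 differed by -1.67 ± 0.16 (SE, adjusted p = 0.0509 in limma), with -1.70 for male and -1.65 for female pools, and limma called 0 members lower, where 0.627% of all genes were called lower. At an unadjusted p under 0.05, 1 member (Krt15) was lower, beside 11.6% of all genes tested. Krt6b and Krt6a differed by -0.90 ± 0.49 and -0.68 ± 0.29, and both passed the fold rule with Krt15, which made 3 members beside 1.89% of all genes. Both treated control pools lay below both control DMSO pools for Krt5, Krt15, Krt6a and Krt6b, 4 members beside 22.0% of all genes tested, while for Krt16 both lay above. Krt5 and Krt14 differed by -0.20 ± 0.33 and -0.16 ± 0.27, Krt17 by 0.17 ± 0.49, and Krt16 by 0.89 ± 0.56, with 0.51 and 1.26.

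The difference between these responses was tested as an interaction, for which limma called 0 members and 0% of all genes tested. At an unadjusted p under 0.05, 2 members, Krt16 and Krt17, had a lower response in Pparg-cKO ureters, beside 2.61% of all genes tested. The response of Krt16 differed by -3.17 ± 0.79 (SE, adjusted p = 0.994) and that of Krt17 by -2.28 ± 0.69 (adjusted p = 0.999). Krt17 had scaled intensities of 15 (the floor) to 45.8 in control ureters, so a fall had less room there than in Pparg-cKO ureters. The room was least in the female control DMSO pool, which stood at the floor. The responses of Krt15 were close in both genotypes, with a difference of 0.27 ± 0.22 and a 95% interval of -0.34 to 0.89. The responses of the other members differed by -0.85 for Krt14 to -1.49 for Krt6b, with 95% intervals that included 0. At its own probe Krt6b differed by -2.84 ± 1.30, with -1.12 for male and -4.56 for female pools and a 95% interval of -6.42 to 0.74.

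Loss of Pparg was next compared among treated ureters. Limma called 0 members, where 3.58% of all genes were called either way, and at an unadjusted p under 0.05, 1 member (Krt5) was lower, beside 10.4% of all genes tested. Krt5 differed by -0.82 ± 0.29 (SE, adjusted p = 0.209), with -0.56 for male and -1.09 for female pools. At the probe at base 677 Krt5 differed by -0.63 ± 0.30 (unadjusted p = 0.0823 in limma), with -0.70 and -0.55. Krt17 differed by 1.29 ± 0.60 (adjusted p = 0.334), with 1.07 and 1.52. By the fold rule Krt17 was the 1 member that was higher, beside 1.56% of all genes, and Krt5 the 1 member that was lower, beside 1.65%. Krt5 passed at the probe at base 2119 but not at that at base 677, where the female pair differed by -0.54 in log2 scaled intensity. Krt16, by contrast, had a negative difference for male (-1.19) and a positive one for female (2.07) pools.

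Treated Pparg-cKO ureters were also set against untreated control ureters, a comparison of pools that differ in dye within each sex. Limma called 0 members, where 14.0% of all genes were called either way. At an unadjusted p under 0.05, 2 members, Krt5 and Krt15, were lower, beside 15.9% of all genes tested. Krt5 differed by -1.03 ± 0.29 (SE, adjusted p = 0.0674) and Krt15 by -1.04 ± 0.41 (adjusted p = 0.150). Krt17 differed by 1.46 ± 0.60 (adjusted p = 0.162), and its treated Pparg-cKO pools, 8.72 and 8.57, stayed above its control DMSO pools, 7.65 and 6.71. The share of all genes that separate in this way was not counted. Krt14 differed by 0.25 ± 0.37, Krt6b by 0.07 ± 1.09, Krt6a by 0.50 ± 1.10 and Krt16 by 1.33 ± 1.70, and the 95% intervals of these 4 included 0.

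The partners of a filament did not always move alike over the 8 pools, which share arrays in pairs and of which the female Pparg-cKO DMSO pool weighs most. Krt5 and Krt14 had a Pearson's r of 0.39 and a Spearman's rho of 0.24 over the 8 pools, and Krt5 and Krt15 of 0.54 and 0.74. Krt6a and Krt16 had an r of 0.94 and a rho of 0.62, and Krt6b and Krt17 an r of 0.85 and a rho of 0.57. Without the female Pparg-cKO DMSO pool these r values over 7 pools were -0.13, 0.37, 0.73 and 0.52. By r, the member closest to Krt14 was Krt17, with an r of 0.96 and a rho of 0.86, and an r of 0.92 without that pool. By rho it was Krt6a, with 0.90.

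Among 3408 other genes above background in all 8 pools and with a range of at least 1 on the log2 scale, the 5 most like Krt14 over the 8 pools were Aqp4 (r = 0.98), Pkp1 (r = 0.98), Fam3b (r = 0.98), Bcl2l15 (r = 0.98) and Krt13 (r = 0.98). Pkp1 encodes a plaque protein of desmosomes, and Krt13 a keratin of suprabasal cells in stratified mucosa. The 5 most like Krt6b, at the probe that is also listed for Krt6a, were Krt6a (r = 0.98), Gm5476 (r = 0.98), Gm5478 (r = 0.96), Lce1b (r = 0.96) and Ifit2 (r = 0.96). Lce1b encodes a cornified envelope protein, and its r fell to 0.77 without the female Pparg-cKO DMSO pool. The 5 most like Krt5 were Kng2 (r = 0.94), 2310001H17Rik (r = 0.93), an unnamed transcript read by the probe A_55_P1953377 (r = 0.93), Tuba1c (r = 0.92) and Tmem178 (r = 0.91), and none of the other 6 members was among them.

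Of 18 other basal cell genes, 1 was called higher and 1 (Aqp3, an aquaglyceroporin) lower in Pparg-cKO ureters with DMSO, and the median of the list was 0.12. Aqp3 fell by 1.55 on the log2 scale, while the desmosomal genes Pkp1 and Dsc3 differed by 1.98 (adjusted p = 0.0831) and 1.62 (adjusted p = 0.0785). The male pairs of Pkp1 and Dsc3 differed by 1.07 and 0.98 and the female pairs by 2.88 and 2.26. With purmorphamine in Pparg-cKO ureters 1 of the 18, Trp63, was called lower, and the largest differences were those of Dsg3 (-2.09, adjusted p = 0.0715), Pkp1 (-1.49) and Dsc3 (-1.48), with -1.33, -0.58 and -0.91 for male and -2.84, -2.41 and -2.05 for female pools. Of 9 genes that anchor keratins to junctions, 0 were called in DMSO by limma and 2 had an unadjusted p under 0.05, Pof1b (0.57) and Pkp3 (0.36), while Dsp, the desmoplakin that binds keratins to desmosomes, differed by 0.46, with 0.04 for male and 0.88 for female pools. Of these 9, Pkp2 was the 1 gene called lower with purmorphamine in Pparg-cKO ureters, with -0.88, beside -0.35 for Eppk1 and 0.32 for Evpl.

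Of 10 transcription factors known to act on keratin genes, 2 were called higher in Pparg-cKO ureters with DMSO. Tfap2a differed by 0.69 (adjusted p = 0.0431), while Grhl3 and Trp63, a factor of basal and intermediate cells, differed by -0.67 and -0.51. With purmorphamine in Pparg-cKO ureters Grhl3 rose by 0.75 (adjusted p = 0.0341) and Trp63 fell by 0.60 (adjusted p = 0.0466), while Tfap2a differed by -0.73. Promoters were on hand for 2 of the 7 members, Krt5 and Krt14, from RefSeq (GRCm38.p6), as windows of 300 bases around the start, chr15:101712856-101713155 and chr11:100205981-100206280, both on the minus strand. The AP-1 motif TGANTCA, the GLI motif TGGGTGGTC and the PPAR/RXR element, a direct repeat of AGGTCA with 1 base between, were searched on both strands and matched in neither window, and 7.81%, 0.253% and 0.0396% of all 32851 promoters held them.

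Wound and AP-1 genes showed no call in Pparg-cKO ureters with DMSO, with 0 of 20 by limma and 0 at an unadjusted p under 0.05. S100a8, an alarmin of stressed keratinocytes and neutrophils, differed by -1.42 for male and 5.97 for female pools, Hbegf by 0.52 and Plaur by -0.43. With purmorphamine in Pparg-cKO ureters 5 of the 20 were called lower, among them the EGF family ligand Ereg, which fell by 4.15 (adjusted p = 0.0373), beside S100a8 (-3.42) and S100a9 (-3.19), which were not called. Ereg differed by -4.13 for male and -4.17 for female pools, S100a8 by -0.93 and -5.91, and S100a9 by -1.07 and -5.31. In control ureters 3 of the 20 were called lower with purmorphamine.

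The other keratins set the members in context. Of 6 simple epithelial keratins, Krt20, the keratin of S cells, was the 1 called lower with DMSO, by -3.70 (adjusted p = 0.00848), and it rose by 2.43 with purmorphamine in Pparg-cKO ureters (adjusted p = 0.0341). Krt18 and Krt7 differed by -0.13 and -0.39 in DMSO, and with purmorphamine Krt18 rose by 0.49 and Krt19 differed by -0.23. Of 7 suprabasal squamous keratins tested, 2 were called higher in Pparg-cKO ureters with DMSO, Krt4 by 1.66 (adjusted p = 0.00848) and Krt78 by 1.57 (adjusted p = 0.0129), each with close values in the male and female pools. Krt1, an early keratin of the differentiating epidermis, differed by -0.54 for male and 7.03 for female pools. With purmorphamine in Pparg-cKO ureters Krt4 fell by 1.12, and Krt1 and Krt10 differed by -2.58 and -1.41. For these 2 genes the male pools differed by -0.13 and 0.0033 and the female pools by -5.02 and -2.83.

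Of 10 proliferation genes 0 were called in DMSO, while 6 were higher at an unadjusted p under 0.05 in limma, with 0.58 for Ccnb2, 0.54 for Ccna2 and 0.53 for Ccnb1. For these 3 genes the male pools differed by 0.13 to 0.16 and the female pools, which include the one that stood apart, by 0.93 to 1.00. With purmorphamine in Pparg-cKO ureters 2 of the 10 were called lower, among them Cdk1 (-0.89), beside -1.03 for Birc5 and -1.01 for Ccnb1, with -0.78, -0.73 and -0.66 for male and -1.01, -1.33 and -1.35 for female pools. Of 4 hedgehog response genes 3 were called higher with purmorphamine in Pparg-cKO ureters, among them Hhip (2.19) and Ptch1 (1.62), beside Gli1 (1.34, adjusted p = 0.0728). With DMSO 0 of the 4 were called by limma, 1 had an unadjusted p under 0.05, and Ptch1 and Hhip differed by -0.70 and -0.38.

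Markers of cornified skin moved with the stress keratins in the female Pparg-cKO DMSO pool. Of the 7 genes of the list 6 were well above background in it, all but Krt2, against 3 to 5 in the others. Lor, which encodes the main protein of the cornified envelope, read 15.69 in that pool and 9.93 in the male pool of the group. Control pools read 8.85 to 9.23 for Lor. Krt1 read 14.46 in that pool and 7.25 in the male pool, beside 7.43 to 8.08 in control ureters. In treated Pparg-cKO ureters Lor read 9.58 in the male and 10.60 in the female pool, and Krt1 read 7.11 and 9.44. The treated female pool was thus the next highest for both genes. Of 8 hair follicle markers 5 were above background in every pool, Krt25, Krt27 and Krt71 were not well above background in any, and their summed intensity was 1095 to 1382. Of the 5 genes of this list tested, 2 were higher and 3 lower in Pparg-cKO ureters with DMSO, with a median of -0.13. Tchh, which encodes trichohyalin of the inner root sheath, was the 1 gene called higher, by 1.12 (adjusted p = 0.00925 in limma). Its levels were 10.58 and 10.47 against 9.29 and 9.52 in control DMSO pools. Another gene of the list was lower at an unadjusted p under 0.05, and the lowest difference was -0.53. The part of cornified cells or of skin in the levels of Krt6a, Krt6b, Krt16, Krt17 and Krt14 was not tested.

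The 6 superficial urothelial markers summed to 38820 and 41080 in Pparg-cKO DMSO, 77090 and 94800 in treated Pparg-cKO, 68050 and 77190 in control DMSO and 118500 and 134300 in treated control pools. Smooth muscle markers (6 genes) summed to 101900 to 122800 with DMSO and 178400 to 217800 with purmorphamine, and fibroblast markers (6 genes) to 112400 to 134700 and 155900 to 194000. Leukocyte markers (5 genes) summed to 54860 to 74080 and 37750 to 55660, endothelial markers (4 genes) to 2424 to 4730 and 6453 to 10220, and adipocyte markers (4 genes) to 20760 to 64820 and 2522 to 50010. With DMSO the male and female adipocyte sums were 52120 and 64820 in control and 31690 and 20760 in Pparg-cKO pools. With purmorphamine they were 50010 and 36460 in control and 2522 and 24650 in Pparg-cKO pools. The male treated Pparg-cKO pool thus stood apart for the adipocyte markers. The part of these cell types in the keratin differences with purmorphamine was not tested. The pan-epithelial markers, whose sums did not separate by treatment, differed by a median of -0.34 with purmorphamine in Pparg-cKO ureters and -0.08 in control ureters, against -1.69 and -0.20 for the 7 members. The 9 markers went both ways. They ranged from -0.81 to 0.49 in Pparg-cKO ureters, with 3 higher and 6 lower. In control ureters they ranged from -0.96 to 0.47, with 2 higher and 7 lower. The mean log2 level of the pan-epithelial markers was lower with purmorphamine in each genotype. It was 14.53 and 14.59 in Pparg-cKO DMSO and 14.42 and 14.29 in treated Pparg-cKO pools. In control ureters it was 14.41 and 14.43 with DMSO and 14.27 in both treated pools.

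**Figure D4:**
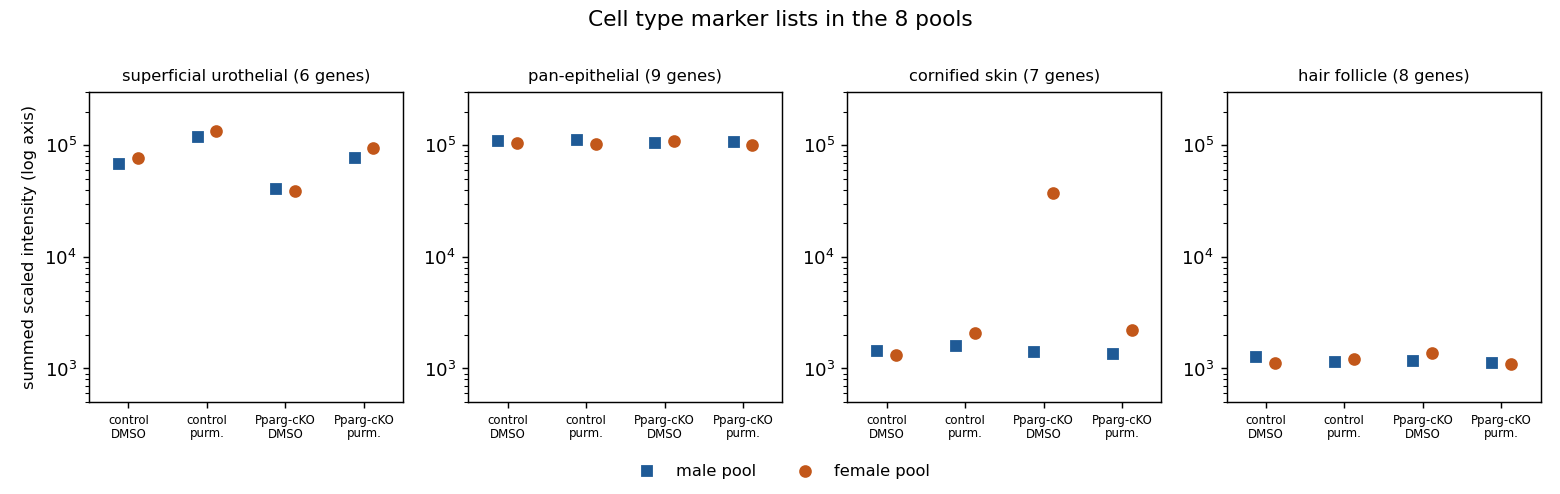
Summed scaled intensity (y axis, log scale) of 4 marker lists in the male (squares) and female (circles) pools of the 4 groups (x axis). The cornified skin list stands at 37700 in the female Pparg-cKO DMSO pool and at 1330 to 2234 in the other 7 pools, while the sum of the hair follicle list lies between 1095 and 1382.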

How the data were processed

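RNA of 8 sex-sorted pools was measured on 4 two-color arrays, with 2 pools in each of 4 groups. Per the file headers, each spot has a mean and a local background intensity that are not normalized, and a processed intensity from which the scanner software took the background and the dye bias. The headers name version 12.2.0.7, while the submitters' processing notes name Agilent Feature Extraction 10.7.3.1. The deposited log10 ratio (red to green) served to check the dyes (r = 0.975 to 0.998). The deposited score, a signed fold of purmorphamine against DMSO in the value table of the series, has no stated normalization and a column median of 0 in log2. It had an r of 0.995 to 0.998 with the scaled log2 ratio and was an alternative. Per channel 66.3% to 70.5% of the 157716 spots exceeded background clearly, and 0 were saturated.

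Mean signals were corrected by normexp (offset 50) and loess in limma 3.58.1 (R 4.3.3), without outlier spots, and the 4 spots of a probe were averaged. For the genotypes, a separate-channel fit followed Aquantile normalization (intraspot correlation 0.0755 from 4000 probes). For purmorphamine, the log ratios within arrays were fitted. All groups entered each fit. Tested were 27078 probes of 20241 genes that were clearly above background in both pools of some group. The brightest probe stood for a gene (for Krt5 that at base 2119, for Krt6b that at base 645), and p was adjusted by Benjamini-Hochberg over all genes tested, with a threshold of 0.05. The fits were tested on simulated data.

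All 7 members are given in all pools. Of each list other than marker lists, the counts and the 3 genes with the largest absolute log2 difference are given for Pparg loss with DMSO and for purmorphamine in Pparg-cKO ureters, among genes above background in both groups. Tchh was named after its values were seen. Some genes that the rule or a call would name are not reported here. The members and lists were chosen with earlier results of these data known. Alternatives were outlier spots kept, an offset of 10, median centring, processed signals, no filter, the mean of all probes, the replicate block, each array left out, other between-array normalizations, the value table, and a fold of 2, no intensity threshold or a single pair in the fold rule. The second probes of Krt5 and Krt6b and a fit without floored probes were added after seeing the data.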

Additional observations from a re-analysis of the deposited data

Results flagged for a closer look

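Krt16 was lower with purmorphamine in both pools of Pparg-cKO ureters (-1.23 for male and -3.33 for female pools) and higher in both pools of control ureters (0.51 and 1.26). Because the pools of the genotypes moved in opposite directions it is listed here, with a log2 difference of -3.17 and an adjusted p of 0.994 for the interaction in limma. For the same reason Krt17 is listed, with -1.16 and -3.06 in Pparg-cKO ureters, 0.001 and 0.34 in control ureters, a difference of -2.28 and an adjusted p of 0.999. The male control value of Krt17 is close to 0. Krt17 also lay at or near the floor in control ureters. Its scaled intensities were 44.4 and 15 (the floor) with DMSO and 45.8 and 22.2 with purmorphamine. A fall in control ureters therefore had less room than in Pparg-cKO ureters, and none on that scale in the female control DMSO pool. No opposite response of Krt17 can be read from these values. Without the array of the female Pparg-cKO pools (Pparg-cKO replicate 2) the differences were -2.12 for Krt16 and -1.33 for Krt17.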

How the results depend on the processing

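With 2 pools per group, the number of arrays limits every call. Over the alternatives Krt17 kept its call for Pparg loss with DMSO in 10 of 15 (adjusted p 0.0165 to 0.161 in limma), and Krt15 its call for purmorphamine in Pparg-cKO ureters in 6 of 14 (0.00358 to 0.197). All 7 members were lower with purmorphamine in Pparg-cKO ureters under all 14 alternatives. Of the single-member values under the alternatives, 566 kept their direction and their side of the threshold, 20 gained a call, 13 lost it and 10 reversed. The cause of these changes was not tested.

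For Pparg loss with DMSO, 1 member was called, against 0 with processed signals and 0 with the replicate block, and 0 to 4 with an array left out. The 4 (Krt6a, Krt6b, Krt16 and Krt17) came without Pparg-cKO replicate 1. For Pparg loss with purmorphamine, 0 members were called, and 0 to 1 with an array left out. For purmorphamine in Pparg-cKO ureters, 1 member was called, against 4 with an offset of 10, 5 with median centring, 2 with the mean of all probes, and 0 with processed signals, no filter, the value table, the replicate block or any array left out (0 to 0). In control ureters 0 members were called, against 1 (Krt15) with an offset of 10, median centring, the mean of all probes, or processed signals without floored probes. For treated Pparg-cKO against untreated control ureters, 0 were called, against 1 (Krt5) without normalization between arrays and 0 to 2 with an array left out. The replicate numbers mark sex and dye, and the labels name no shared animals, litter or day, so the pools were not treated as paired. Same-numbered pools of the genotypes deviated with an r of -0.15 in DMSO and 0.47 with purmorphamine. In the fit with that block the adjusted p was 0.101 for Krt17 and 0.0649 for Krt15.

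By the fold rule, a fold of 2 left 1 member for Pparg loss with purmorphamine (2 at 1.5) and 1 for purmorphamine in control ureters (3 at 1.5). It left 2 members for Pparg loss with DMSO (3 at 1.5), without Krt16. For purmorphamine in Pparg-cKO ureters it left 5 (6 at 1.5), without Krt5. With a single pair, 3 to 6 members passed for Pparg loss with DMSO, 3 to 7 for Pparg loss with purmorphamine and 3 to 5 for purmorphamine in control ureters. The median of the members for purmorphamine in control ureters was -0.20, against -0.38 with the second probes and -0.33 to -0.16 with an array left out.

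Values that reversed were small or rested on a pool. Krt5 for Pparg loss with DMSO was -0.012 without normalization between arrays, -0.070 at its second probe and -0.057 to 0.45 with an array left out, and Krt6b in treated Pparg-cKO against untreated control ureters was -0.074 without that normalization. With an array left out, Krt15 spanned -0.13 to 0.84 for Pparg loss with DMSO and -0.018 to 0.57 for the difference of the responses, and Krt16 spanned -1.08 to 1.99 for Pparg loss with purmorphamine. For treated Pparg-cKO against untreated control ureters, Krt16 spanned -0.20 to 2.88, Krt6a -0.58 to 1.59 and Krt6b -0.72 to 0.88. With 3 arrays the intraspot correlation could not be estimated and that of 4 arrays was used, and a lone pool is assumed to vary like the other groups.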
